A study of Rattus norvegicus with 30 samples.

Results

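The enzymes that turn acetyl-CoA into squalene by way of mevalonate were followed step by step in rat dorsal hippocampus, as 9 genes taken by symbol and in pathway order from a count table of 17455 genes. They are Acat2, Hmgcs1, Mvk, Pmvk, Mvd, Idi1, Fdps, Ggps1 and Fdft1. All 9 had a row, and all 9 passed the filter on low counts that left 12547 genes for testing. The step from HMG-CoA to mevalonate is not analysed here.

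RNA was sequenced from 30 libraries of snap-frozen dorsal hippocampus after selection of polyadenylated transcripts, to follow gene expression in an Alzheimer's disease model under 2 diets. The rats labelled alzheimer are TgF344-AD, a line on the Fischer 344 background that carries mutated human transgenes of familial Alzheimer's disease, among them APP, driven by the mouse prion promoter. The groups were female alzheimer western (replicates 11, 18 and 21), female wildtype western (12, 17 and 22), female alzheimer chow (10, 14, 16 and 19) and female wildtype chow (9, 13, 15 and 20). The male groups were alzheimer western (1, 6, 23 and 28), wildtype western (2, 5, 24 and 27), alzheimer chow (3, 8, 25 and 30) and wildtype chow (4, 7, 26 and 29). Replicate numbers are the running numbers of the libraries. Every group held libraries of both labelled cohorts, with 14 libraries in cohort 1 and 16 in cohort 2. The labels give neither age nor length of feeding, and no group was labelled with a drug or another allele. Libraries held 15.6 to 31.4 M counts (M for mega) in the 15 alzheimer libraries and 13.9 to 22.8 M in the 15 wildtype libraries. App, whose row receives reads of the transgene as far as the 2 species' sequences match, averaged 3294 ± 76.3 CPM over the alzheimer and 1672 ± 52.7 CPM over the wildtype group (SD, n = 15 each), with no overlap. CPM are counts per M counts after TMM scaling, which sets libraries on a common scale. Neuron markers summed to 6764 to 7663 CPM in alzheimer libraries and 6951 to 7857 CPM in wildtype ones, and every hippocampal neuron marker listed was detected, although Fibcd1 was low.

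The mevalonate pathway condenses acetyl-CoA into HMG-CoA, makes mevalonate, and converts that into the isoprenoid building blocks isopentenyl and dimethylallyl diphosphate. These are joined into farnesyl diphosphate, the branch point at which carbon goes to squalene and sterols, or to geranylgeranyl groups, dolichol and ubiquinone. The adult brain makes its own cholesterol, because lipoproteins of the blood hardly cross the blood-brain barrier, and much of it lies in myelin. Transcription of many of these genes is driven by SREBP-2, the product of Srebf2, which is cut and moves to the nucleus when sterols in the endoplasmic reticulum run low.

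In alzheimer hippocampus 6 of the 9 genes rose, and none fell. Against the background of 8.03% of all tested genes called for genotype in either direction, 4.14% higher and 3.89% lower, these 6 were Acat2, Hmgcs1, Mvd, Idi1, Fdps and Fdft1. The remaining 3 were Mvk, Pmvk and Ggps1, which had small positive values that did not pass. The median log2 fold change over the 9 was 0.206, against 0.00203 over all tested genes. A gene is called where the Benjamini-Hochberg adjusted p of edgeR's quasi-likelihood test, over all 12547 genes, was under 0.05. Fold changes are alzheimer over wildtype on the log2 scale, averaged with equal weight over the 4 strata (the combinations of sex and diet), and each carries its standard error. In bulk tissue, fewer cells of a type and less RNA per cell cannot be told apart, and the same holds for more.

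**Figure D1:**
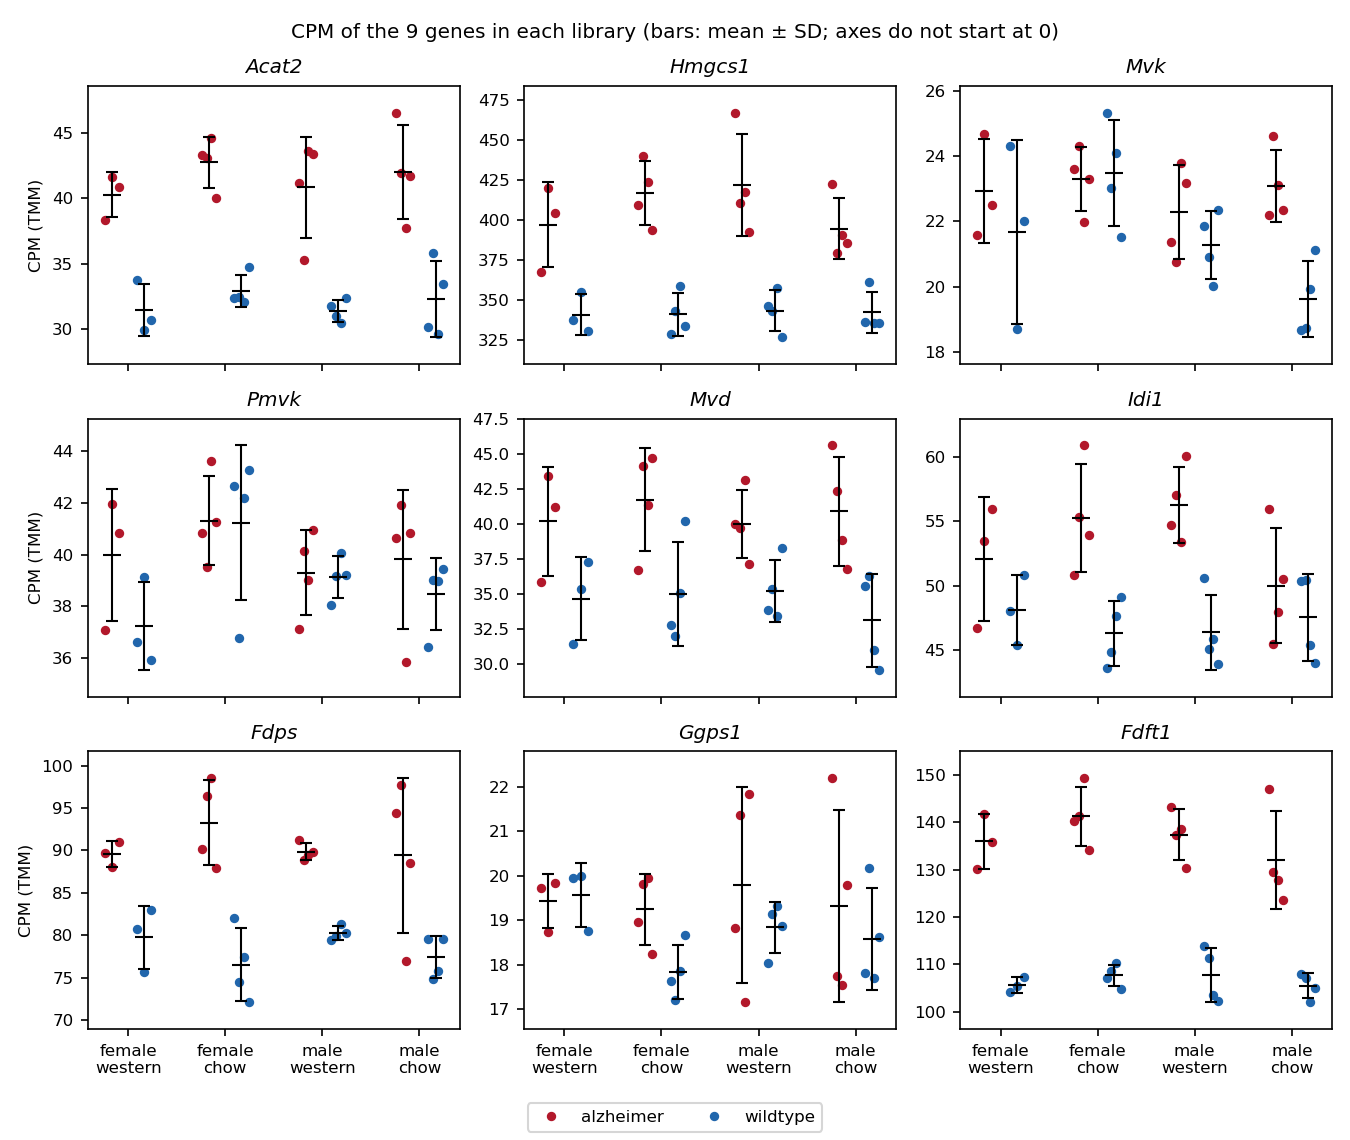
TMM-scaled CPM of each gene (vertical axis, not starting at 0) in every library, by sex and diet (horizontal axis), with alzheimer in red to the left of wildtype in blue; bars give mean ± SD. For Acat2, Hmgcs1 and Fdft1 every alzheimer library lies above every wildtype library of its sex and diet, and for Ggps1 and Pmvk the genotypes overlap in all 4 combinations of sex and diet.

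The first step joins 2 molecules of acetyl-CoA into acetoacetyl-CoA, and its cytosolic enzyme is acetyl-CoA acetyltransferase 2, encoded by Acat2. In females on the western diet Acat2 had 38.3, 40.9 and 41.6 CPM in alzheimer libraries, against 29.9, 30.7 and 33.7 CPM in wildtype libraries. In females on chow it had 40.0, 43.1, 43.3 and 44.6 CPM in alzheimer, against 32.1, 32.4, 32.4 and 34.8 CPM in wildtype libraries. Genotypes did not overlap within either female stratum. In males on the western diet the values were 35.2, 41.2, 43.4 and 43.6 CPM in alzheimer, against 30.5, 31.0, 31.8 and 32.4 CPM in wildtype libraries. In males on chow they were 37.8, 41.7, 41.9 and 46.5 CPM in alzheimer, against 29.6, 30.2, 33.4 and 35.9 CPM in wildtype libraries. The 2 genotypes were therefore apart in every stratum, and over all 30 libraries only the lowest alzheimer and the highest wildtype value crossed, in different strata. Separation of all alzheimer above all wildtype libraries of a stratum was seen in 8.31% of tested genes in females on the western diet, 3.01% in females on chow, 3.63% in males on the western diet and 1.55% in males on chow. Acat2 rose by 0.37 ± 0.0358 (29.6%, adjusted p = 5.05e-09), and 2.17% of tested genes had a larger absolute change. The annotation of GRCr8 holds 3 copies of Acat2, the adjacent gene Acat2l1 and 2 pseudogenes, none of which has a row of its own in the count table, so reads shared with them cannot be assigned.

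Hmgcs1 encodes the cytosolic HMG-CoA synthase, which adds a further acetyl unit to acetoacetyl-CoA. It ranged from 368 through a median of 410 to 467 CPM in the 15 alzheimer libraries, against 327, 338 and 362 CPM in the 15 wildtype libraries. The lowest alzheimer library stood above the highest wildtype library across all strata, a separation that 16 of the tested genes (0.128%) showed in this direction. Hmgcs1 rose by 0.25 ± 0.0253 (19.1%, adjusted p = 1.33e-08). In females on the western diet the lowest alzheimer library had 368 CPM, against 355 CPM in the highest wildtype library, and on chow the lowest alzheimer library had 394 CPM, against 359 CPM in the highest wildtype one. In males on the western diet the same comparison gave 393 CPM for alzheimer and 358 CPM for wildtype, and in males on chow 380 CPM for alzheimer and 362 CPM for wildtype. The gap between genotypes was narrowest in females on the western diet.

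Mevalonate is then phosphorylated in turn by mevalonate kinase (Mvk) and phosphomevalonate kinase (Pmvk). Mvk ranged from 20.8 through 23.1 to 24.7 CPM in alzheimer libraries, and from 18.7 through 21.5 to 25.3 CPM in wildtype libraries. Its genotypes overlapped in all strata but males on chow, where 4 alzheimer libraries had 22.2 to 24.6 CPM and the 4 wildtype libraries 18.7 to 21.1 CPM. The Mvk change was 0.093 ± 0.0387 (adjusted p = 0.139), and by stratum it was 0.083 ± 0.0855 in females on the western diet, -0.011 ± 0.073 in females on chow, 0.067 ± 0.0748 in males on the western diet and 0.23 ± 0.0761 in males on chow. Pmvk ranged from 35.9 through 40.8 to 43.6 CPM in alzheimer libraries and from 36.0 through 39.2 to 43.3 CPM in wildtype libraries, an almost complete overlap. Its change was 0.041 ± 0.0291 (adjusted p = 0.437), and 9 of 15 alzheimer libraries exceeded the wildtype mean of their stratum.

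Mvd encodes the decarboxylase that turns diphosphomevalonate into isopentenyl diphosphate. It ranged from 35.9 through 41.2 to 45.6 CPM in alzheimer libraries, against 29.6, 35.0 and 40.2 CPM in wildtype libraries. All 15 alzheimer libraries exceeded the wildtype mean of their stratum, although the genotypes overlapped in 3 of the 4 strata. They were apart in males on chow, with 36.8, 38.8, 42.4 and 45.6 CPM in alzheimer libraries, against 29.6, 31.0, 35.6 and 36.3 CPM in wildtype libraries. Mvd rose by 0.24 ± 0.0433 (18.1%, adjusted p = 0.000467).

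Idi1 encodes the isomerase that interconverts isopentenyl and dimethylallyl diphosphate. It ranged from 45.5 through 53.9 to 60.9 CPM in alzheimer libraries, against 43.7, 45.9 and 50.8 CPM in wildtype libraries. Genotypes were apart in females on chow, where alzheimer libraries had 50.9 to 60.9 CPM and wildtype libraries 43.7 to 49.1 CPM, and in males on the western diet, where alzheimer libraries had 53.4 to 60.1 CPM and wildtype libraries 44.0 to 50.6 CPM. They overlapped in the other 2 strata. Idi1 rose by 0.18 ± 0.0358 (13.3%, adjusted p = 0.00135), and it was the only one of the 6 to lose its call in a single cohort, with 0.23 ± 0.0411 (adjusted p = 0.00403) in cohort 2 and 0.11 ± 0.0523 (adjusted p = 0.481) in cohort 1. Cohort 1 holds 1 library per genotype in females on the western diet, a stratum with equal weight in that fit. There Idi1 had 46.7 CPM in the alzheimer and 48.1 CPM in the wildtype library. In GRCr8, Idi1 overlaps Wdr37 on the other strand, and Wdr37 rose by 0.073 ± 0.0213 (adjusted p = 0.0278). The strand setting of the counting is unknown, so reads of Idi1 and Wdr37 cannot be told apart in the overlap. Long non-coding RNAs without a row overlap Acat2 (LOC102553528, on the other strand), Hmgcs1 (LOC102547360) and Fdft1 (LOC134482130). A small nuclear RNA without a row, Rnu6-909, overlaps Fdps. Reads shared with these transcripts cannot be assigned either. Adarb2, an adjacent gene, also rose, by 0.19 ± 0.0594 (adjusted p = 0.0419). The other tested genes beside a pathway gene were Wtap, Fam222a, Pbxip1, Kcnn3, Cyba, Pklr, Arid4b, Tbce, Ctsb and Neil2. None of them was called, where 8.03% of all tested genes were called in either direction. An Idi1 pseudogene without a row also exists. Its relative Idi2 had at most 4 counts in any library.

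Fdps encodes farnesyl diphosphate synthase, which makes geranyl and then farnesyl diphosphate. It ranged from 77.0 through 89.8 to 98.5 CPM in alzheimer libraries, against 72.1, 79.5 and 82.9 CPM in wildtype libraries. Of the 15 alzheimer libraries, 14 exceeded every wildtype library, and the exception was a male on chow with 77.0 CPM. The values were tightest in males on the western diet, with 88.9, 89.5, 89.8 and 91.2 CPM in alzheimer libraries, against 79.4, 79.9, 80.3 and 81.3 CPM in wildtype libraries. Fdps rose by 0.21 ± 0.027 (15.3%, adjusted p = 3.06e-06). GRCr8 lists 5 Fdps pseudogenes, none with a row, so some of its reads may be shared with them.

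After farnesyl diphosphate the route divides. Ggps1, the synthase of geranylgeranyl diphosphate on the non-sterol side, ranged from 17.2 through 19.7 to 22.2 CPM in alzheimer libraries, and from 17.2 through 18.7 to 20.2 CPM in wildtype libraries. These genotypes overlapped in every stratum, and the change was 0.056 ± 0.0398 (adjusted p = 0.438). Fdft1, encoding squalene synthase, commits farnesyl diphosphate to sterols. In females on the western diet Fdft1 had 130, 136 and 142 CPM in alzheimer libraries, against 104, 105 and 107 CPM in wildtype libraries. In females on chow it had 134, 140, 141 and 149 CPM in alzheimer, against 105, 107, 109 and 110 CPM in wildtype libraries. In males on the western diet the values were 130, 137, 139 and 143 CPM in alzheimer, against 102, 104, 111 and 114 CPM in wildtype libraries, and on chow 124, 128, 130 and 147 CPM in alzheimer, against 102, 105, 107 and 108 CPM in wildtype libraries. Every alzheimer library was above every wildtype library, whatever the sex or diet. Fdft1 rose by 0.36 ± 0.0237 (28.1%, adjusted p = 5.1e-13), and it stood at rank 7 by p among all tested genes.

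**Figure D2:**
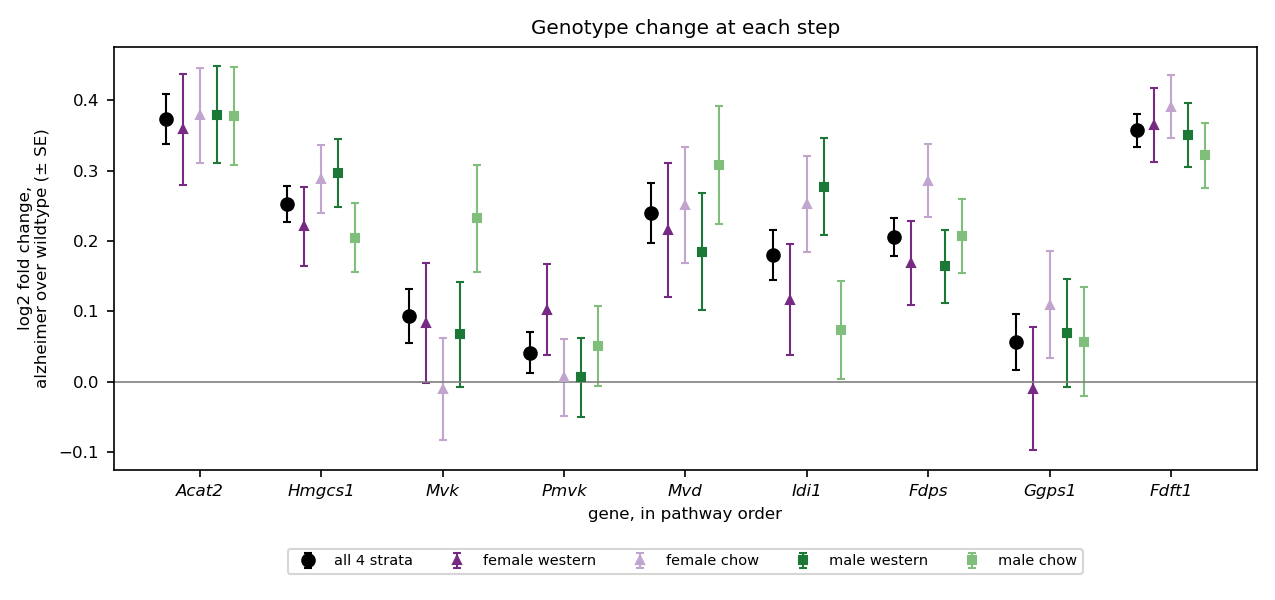
Log2 fold change of alzheimer over wildtype (vertical axis, ± SE) for each gene in pathway order (horizontal axis), over all 4 strata in black and within each stratum in colour. The largest changes stand at both ends, Acat2 with 0.37 and Fdft1 with 0.36, while Mvk, Pmvk and Ggps1 lie between 0.041 and 0.093.

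Each change was also fitted within cohort 2 and within cohort 1, the only batches the labels name. In cohort 1, females on the western diet, with 1 library per genotype, had the same weight as any other stratum. Acat2 had 0.39 ± 0.0431 in cohort 2 and 0.32 ± 0.0546 in cohort 1. Fdft1 had 0.36 ± 0.0306 in cohort 2 and 0.34 ± 0.0365 in cohort 1, and Hmgcs1 had 0.24 ± 0.029 in cohort 2 and 0.25 ± 0.0383 in cohort 1. Mvd had 0.22 ± 0.0478 in cohort 2 and 0.25 ± 0.0521 in cohort 1, and Fdps had 0.18 ± 0.0372 in cohort 2 and 0.22 ± 0.0384 in cohort 1. All 5 of these genes passed in edgeR within each cohort. Mvk had 0.12 ± 0.0533 in cohort 2 and 0.027 ± 0.0563 in cohort 1, and did not pass in either. Pmvk had 0.026 ± 0.0393 in cohort 2 and 0.040 ± 0.0497 in cohort 1, and Ggps1 0.029 ± 0.0583 in cohort 2 and 0.078 ± 0.0686 in cohort 1, none of which passed.

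The size of the change was then compared between genes, which a gene-wise test does not do. For each pair, the log2 ratio of the 2 genes' counts within a library was compared between genotypes by a two-sided exact permutation test. Genotype labels were exchanged within each combination of sex, diet and cohort, and p-values were adjusted over the 36 pairs. Of these, 25 passed, and all 25 kept their sign within each cohort, with 20 passing in cohort 2 alone and 12 in cohort 1 alone. The change was thus unequal along the pathway.

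Between the 8 pairs of neighbours in the list, 5 differences passed. These pairs are not all consecutive steps. The step from HMG-CoA to mevalonate lies between Hmgcs1 and Mvk, and Ggps1 and Fdft1 both follow Fdps. Acat2 changed more than Hmgcs1, by 0.12 ± 0.0332 (adjusted p = 0.00296, exact permutation), and Hmgcs1 more than Mvk, by 0.16 ± 0.0511 (adjusted p = 0.0107, exact permutation). Between the 2 kinases no difference was detected, with Mvk minus Pmvk at 0.059 (95% interval -0.029 to 0.15). Mvd changed more than Pmvk, with a Pmvk minus Mvd difference of -0.20 ± 0.0433 (adjusted p = 0.000327, exact permutation). Neither Mvd minus Idi1, at 0.057 (95% interval -0.048 to 0.16), nor Idi1 minus Fdps, at -0.024 (95% interval -0.115 to 0.067), passed. At the branch point, Fdps changed more than Ggps1, by 0.15 ± 0.0421 (adjusted p = 0.00259, exact permutation). Ggps1 minus Fdft1 was -0.30 ± 0.0395 (adjusted p = 4.29e-05, exact permutation), the largest difference between neighbours in the list. Fdps and Fdft1 are consecutive on the way to squalene, though not neighbours in the list. Fdps minus Fdft1 was -0.15 ± 0.0283 (adjusted p = 0.000283, exact permutation).

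Grouped by size after the values were seen, the 9 genes formed 3 sets. Acat2 and Fdft1 changed most and did not differ detectably from each other, with a difference of 0.018 (95% interval -0.043 to 0.078). Each of them exceeded each of Hmgcs1, Mvd, Idi1 and Fdps, in 8 of 8 pairs, by 0.10 to 0.19. Within those 4, none of 6 pairs passed, and the largest difference was 0.070. The 4 exceeded Mvk, Pmvk and Ggps1 in 11 of 12 pairs, the exception being Mvk minus Idi1 at -0.089 (adjusted p = 0.197, exact permutation). A pair that did not pass is not thereby shown to change alike. Since the sets were formed from these differences, the counts describe them and add no support.

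**Figure D3:**
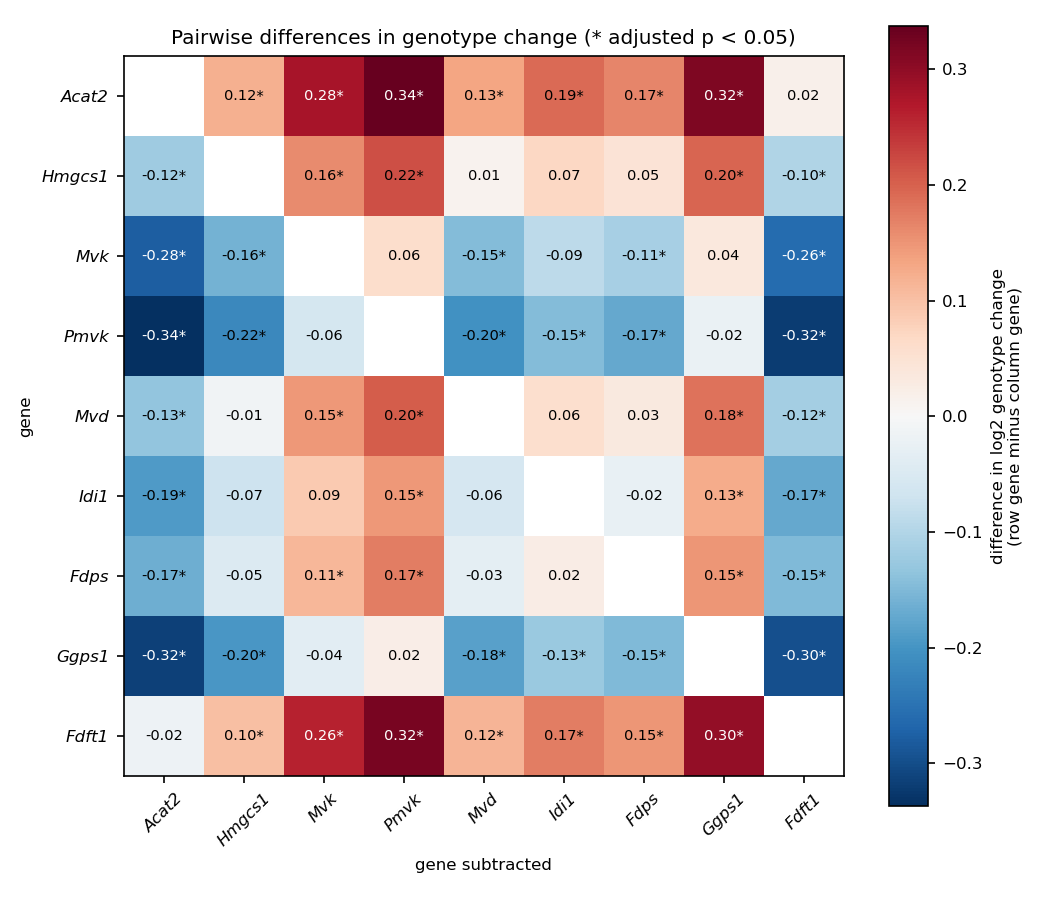
Difference in log2 genotype change between every pair of genes, gene on the vertical axis minus gene on the horizontal axis, with red where the gene on the vertical axis changed more and an asterisk where the adjusted p was under 0.05. Rows of Acat2 and Fdft1 are red against every gene but each other, and 25 of 36 pairs carry an asterisk.

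Promoter sequence was read for 7 of the 9 genes, all but Pmvk and Fdft1, from RefSeq windows on GRCr8. Each window was taken as the 250 bases before the annotated start. Windows are printed for the gene with the largest change (Acat2), for a pair of rising genes with a change of middle size (Hmgcs1 and Fdps), and for a gene that did not pass (Mvk). CCAAT boxes, to which the factor NF-Y binds in many sterol genes, are in capitals, as CCAAT or, on the other strand, ATTGG. The windows lie at chr1:50100590-50100839, plus strand (Acat2), chr2:53382054-53382303, plus strand (Hmgcs1), chr12:47819504-47819753, minus strand (Mvk) and chr2:176804817-176805066, minus strand (Fdps).
Acat2: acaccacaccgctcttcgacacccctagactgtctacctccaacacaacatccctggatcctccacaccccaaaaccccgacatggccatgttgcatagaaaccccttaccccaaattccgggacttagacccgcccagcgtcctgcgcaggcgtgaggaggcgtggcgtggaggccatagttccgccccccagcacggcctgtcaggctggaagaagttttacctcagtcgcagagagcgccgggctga
Hmgcs1: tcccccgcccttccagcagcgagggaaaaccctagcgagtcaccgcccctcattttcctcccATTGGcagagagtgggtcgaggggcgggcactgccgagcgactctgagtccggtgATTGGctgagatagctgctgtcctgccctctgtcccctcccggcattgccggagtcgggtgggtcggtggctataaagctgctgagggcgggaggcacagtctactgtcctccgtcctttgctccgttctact
Mvk: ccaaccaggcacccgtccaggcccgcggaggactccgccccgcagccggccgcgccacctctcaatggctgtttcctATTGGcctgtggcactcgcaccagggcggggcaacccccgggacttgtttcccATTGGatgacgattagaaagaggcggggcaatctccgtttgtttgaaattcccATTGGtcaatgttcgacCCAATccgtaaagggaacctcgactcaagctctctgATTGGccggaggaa
Fdps: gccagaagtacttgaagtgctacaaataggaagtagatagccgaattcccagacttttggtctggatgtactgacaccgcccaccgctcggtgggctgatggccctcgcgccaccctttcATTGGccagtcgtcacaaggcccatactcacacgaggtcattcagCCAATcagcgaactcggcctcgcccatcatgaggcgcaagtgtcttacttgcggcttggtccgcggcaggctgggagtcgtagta

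On both strands, CCAAT occurred in 6 of the 7 windows, against 34.5% of the windows of all tested genes and 34.0% of all windows. Mvk, which was not called, had 5 of these boxes, more than any other of the 7, while Acat2 had 0. Hmgcs1, Idi1 and Fdps had 2 each, and Mvd and Ggps1 had 1 each. Mvk lies head to head within 1 kb of Mmab, and Ggps1 of Arid4b. Boxes in the windows of Mvk and Ggps1 therefore cannot be credited to these genes alone. The GC box GGGCGG occurred in 5 of 7 windows, against 57.4% for tested genes and 30.5% for all windows. TCACNCCAC, a core of the sterol regulatory element, occurred in 0 of 7 windows and in 1.0% of the windows of all tested genes and of all windows. Other forms of the element were not searched for, so the lack of this string does not show that a window lacks the element. No 2 matches overlapped in these windows, and a match is a description of the letters, not a binding site. Among these 7 genes the number of CCAAT boxes did not follow the order of the genotype changes. Pmvk and Fdft1, which had no window, are missing from this order, and a link between boxes and changes was not tested.

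The genotype change was next taken within each diet and sex. On the western diet 5 of the 9 genes rose, against 1.51% of all tested genes called higher, and on chow 5 rose, against 0.542%. Mvd missed the threshold on the western diet (0.20 ± 0.0635, adjusted p = 0.0753), but passed there in DESeq2 (adjusted p = 0.0441) and in edgeR without the filter on low counts (adjusted p = 0.0459). Idi1 missed it on chow (0.16 ± 0.0487, adjusted p = 0.127), but passed there with the log2 sum of the astrocyte markers as a covariate (adjusted p = 0.0322). On the western diet Fdps had 0.17 ± 0.0396 (adjusted p = 0.0139). It lost its call with the astrocyte covariate (adjusted p = 0.0662) and without replicate 17, each of which left a count of 3. Idi1 had 0.20 ± 0.0524 there (adjusted p = 0.0291). It lost its call with the oligodendrocyte covariate (adjusted p = 0.102), with the astrocyte covariate (adjusted p = 0.18) and without replicate 5, 6, 12, 17, 18, 21, 24, 27 or 28. On the western diet Acat2, Hmgcs1, Idi1 and Fdps lost their calls in cohort 1 alone, with 1 female library per genotype there. Fdps also lost its call on that diet in cohort 2 alone (0.16, adjusted p = 0.152). On chow Mvd lost its call in either cohort alone, at 0.26 in cohort 2 and 0.30 in cohort 1. Fdps lost its call on chow in cohort 2 alone (0.20, adjusted p = 0.151).

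In females 6 rose, against a background of 1.24% called higher, and in males 5 rose, against 0.685%. Idi1 had 0.18 ± 0.0522 in females (adjusted p = 0.0486) and 0.18 ± 0.0489 in males (adjusted p = 0.0668), and which side of the threshold it took depended on the setting in both sexes. Its call in females ended in 21 of the 30 omissions of 1 library, and with median-of-ratios factors or without the cohort term (adjusted p = 0.0511 in each). It also ended with the covariate for library size (adjusted p = 0.0628), for oligodendrocyte markers (adjusted p = 0.121) and for astrocyte markers (0.13, adjusted p = 0.28), in cohort 2 alone (adjusted p = 0.0816) and in cohort 1 alone (adjusted p = 0.757). In males it passed in DESeq2 (adjusted p = 0.0386), without the filter (adjusted p = 0.0462), with the astrocyte covariate (adjusted p = 0.0158) and without replicate 2, 7 or 8. Mvd had 0.23 ± 0.0632 in females (adjusted p = 0.0395) and 0.25 ± 0.0593 in males (adjusted p = 0.0285). The Mvd call in females ended with the oligodendrocyte covariate (0.17, adjusted p = 0.162), with the astrocyte covariate (0.21, adjusted p = 0.176) and without replicate 9, 12, 13, 14, 15, 16, 17, 18, 19 or 21. That in males ended without replicate 2, 3, 23, 24, 26 or 29, and in each sex it ended in either cohort alone.

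In the single strata of 3 or 4 libraries a side, Acat2 and Fdft1 rose in all 4, Hmgcs1 in females on chow and males on the western diet, Fdps in females on chow, and Idi1 in males on the western diet. That makes 2 of 9 in females on the western diet (background called higher 0.167%), 4 in females on chow (0.247%), 4 in males on the western diet (0.43%) and 2 in males on chow (0.175%). Acat2 had 0.36 ± 0.0793 in females on the western diet (adjusted p = 0.0311), the lowest of its 4 values, and 0.38 ± 0.0689 in males on the western diet, the highest. Fdft1 ran from 0.32 ± 0.046 in males on chow to 0.39 ± 0.0453 in females on chow. In females on the western diet Acat2 lost its call without replicate 17, 18, 21 or 22 (adjusted p from 0.111 to 0.209) and with the covariate for library size (0.0847), oligodendrocyte markers (0.0519) or astrocyte markers (0.179), and the count there was then 1.

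Idi1 lost its call in males on the western diet (0.28 ± 0.0686, adjusted p = 0.0426) without replicate 1, 5, 6, 13, 22, 23, 24, 25, 26, 27 or 28. It also lost it with the covariate for library size (adjusted p = 0.0734), oligodendrocyte markers (adjusted p = 0.0743) or astrocyte markers (adjusted p = 0.0578). Hmgcs1 missed the threshold in females on the western diet (0.22 ± 0.056, adjusted p = 0.0831), but passed in DESeq2 (adjusted p = 0.0202), without the filter (adjusted p = 0.0311), in limma-voom (adjusted p = 0.0417) and without replicate 11. In males on chow it also missed it (0.20 ± 0.0487, adjusted p = 0.0648), but passed in DESeq2 (adjusted p = 0.0248), without the filter (adjusted p = 0.0219), with the oligodendrocyte covariate (adjusted p = 0.0343) and without replicate 1 or 11. Fdps passed in DESeq2 in males on the western diet (adjusted p = 0.0494), and in males on chow in DESeq2 (adjusted p = 0.0483) and without replicate 25.

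None of the 9 differences in genotype change between diets or between sexes passed, and no gene of the whole table did (0% called). For genotype by diet edgeR called 0 genes, with 446 at an unadjusted p under 0.05, and DESeq2 and limma-voom called 0 as well. For genotype by sex edgeR, DESeq2 and limma-voom called 0 genes, with 528 at an unadjusted p under 0.05 in edgeR. None of the 9 was among them in either contrast. The largest differences were -0.080 ± 0.0541 for Fdps by diet (western minus chow) and -0.11 ± 0.0775 for Mvk by sex (female minus male).

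Diet itself moved none of the 9 genes past the threshold, in a table where 0.00797% of genes were called. The values ran from -0.058 ± 0.036 for Acat2 to 0.052 ± 0.0399 for Ggps1 (western minus chow, adjusted p = 0.93 and 0.955 by edgeR). Nor did sex, where 0.837% of genes were called and Mvk had the largest value, 0.086 ± 0.0388 (female minus male, adjusted p = 0.292). Diet by sex called none of the 9 against 1.23% of genes, and cohort none against 0.0877%. For these 4 contrasts together, a p that misses the threshold does not show that the groups are alike.

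Apart from the groups, the genes varied together weakly. After removal of group and cohort means, 30 of the 36 pairs had a positive Pearson r over the 30 libraries, with a median of 0.249 and a range from -0.366 to 0.655. Hmgcs1 and Fdft1 had r = 0.655 and Spearman's rho = 0.709 (permutation p = 7e-05 and 4e-05, adjusted over 36 pairs 0.00252 and 0.00144). Without the 2 libraries farthest from the median of Hmgcs1 r was 0.617, and it was 0.624 in cohort 2 and 0.684 in cohort 1. Idi1 and Fdft1 had r = 0.57 and rho = 0.506 (permutation p = 0.00089 and 0.00463, adjusted 0.016 and 0.0556), but r without the 2 farthest libraries was 0.388, and it was 0.344 in cohort 2 and 0.768 in cohort 1. No other pair passed. Residuals were permuted over all 30 libraries without allowance for the group and cohort means removed. These p-values are therefore too small, and the pass of Idi1 and Fdft1, which is near the threshold, is uncertain.

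Of genes outside the pathway, those whose residuals followed the mean of the 9 most closely over the 30 libraries were Ola1 (r = 0.856), Cdc123 (0.81), Ndrg4 (0.784), Atp6v1b2 (0.774), Atf4 (0.769), Vsnl1 (0.76), Gdi2 (0.758) and Snap25 (0.757). The 99th percentile of all tested genes was 0.608, and all points share their libraries and depth. Atp6v1b2, a subunit of the vacuolar proton pump, rose in alzheimer libraries by 0.090 ± 0.0186 (adjusted p = 0.00185). The other 7 were not called for genotype, with values from -0.012 ± 0.0237 for Snap25 to 0.047 ± 0.0174 for Ndrg4.

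The neighbours of the pathway were counted by lists. Over all tested genes 4.14% were called higher for genotype and 3.89% lower. Of 12 sterol enzymes after squalene 9 rose and 0 fell, with a median of 0.175. Sqle, which oxidises squalene, rose by 0.21 ± 0.0274 (adjusted p = 3.11e-06), Nsdhl, which takes part in removing the methyl groups of the sterol ring, by 0.22 ± 0.0331 (adjusted p = 2.08e-05) and Dhcr7, a reductase of the sterol ring, by 0.17 ± 0.0284 (adjusted p = 0.000104). Cyp51, Lbr and Hsd17b7 were not called, and their values were 0.050 ± 0.0232, 0.13 ± 0.0562 and 0.17 ± 0.0844.

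Of 12 genes of sterol sensing and uptake 5 rose and 0 fell, with a median of 0.121. Stard4, a carrier of sterols between membranes, averaged 24.2 ± 2.39 CPM over alzheimer and 17.7 ± 1.37 CPM over wildtype libraries (SD, n = 15 each) and rose by 0.44 ± 0.0439 (adjusted p = 1.3e-08). Insig1, which holds the SREBP complex in the endoplasmic reticulum, rose by 0.25 ± 0.0295 (adjusted p = 5.09e-07). Srebf2 rose by 0.16 ± 0.0195 (adjusted p = 6.1e-07), while Srebf1, whose main form in many tissues drives fatty acid synthesis, had -0.049 ± 0.0389 (adjusted p = 0.496). Scap, the escort of SREBP proteins, had -0.018 ± 0.0203 (adjusted p = 0.668).

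Of 4 genes that supply cytosolic acetyl-CoA, the substrate of the Acat2 step, 1 rose. It was Acly, the citrate lyase, with 303 ± 6.65 CPM over alzheimer and 268 ± 5.87 CPM over wildtype libraries (SD, n = 15 each), a rise of 0.17 ± 0.0164 (adjusted p = 3.31e-09). On the non-sterol side, 0 of 17 tested users of farnesyl and geranylgeranyl diphosphate (18 listed) were called, with a median of -0.00585. These are the prenyl transferases and the enzymes of dolichol and ubiquinone synthesis, and the smallest p was that of Pggt1b, a subunit of geranylgeranyl transferase, at 0.13 ± 0.0481 (adjusted p = 0.0816). Of 5 mitochondrial relatives of the first steps, which make and break ketone bodies, 0 were called, and the median was -0.0263. Since 8.03% of all tested genes were called in either direction, 0 of 17 and 0 of 5 lie near the share of the whole table. They do not set these lists apart from other genes. The differences between lists were not tested.

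**Figure D4:**
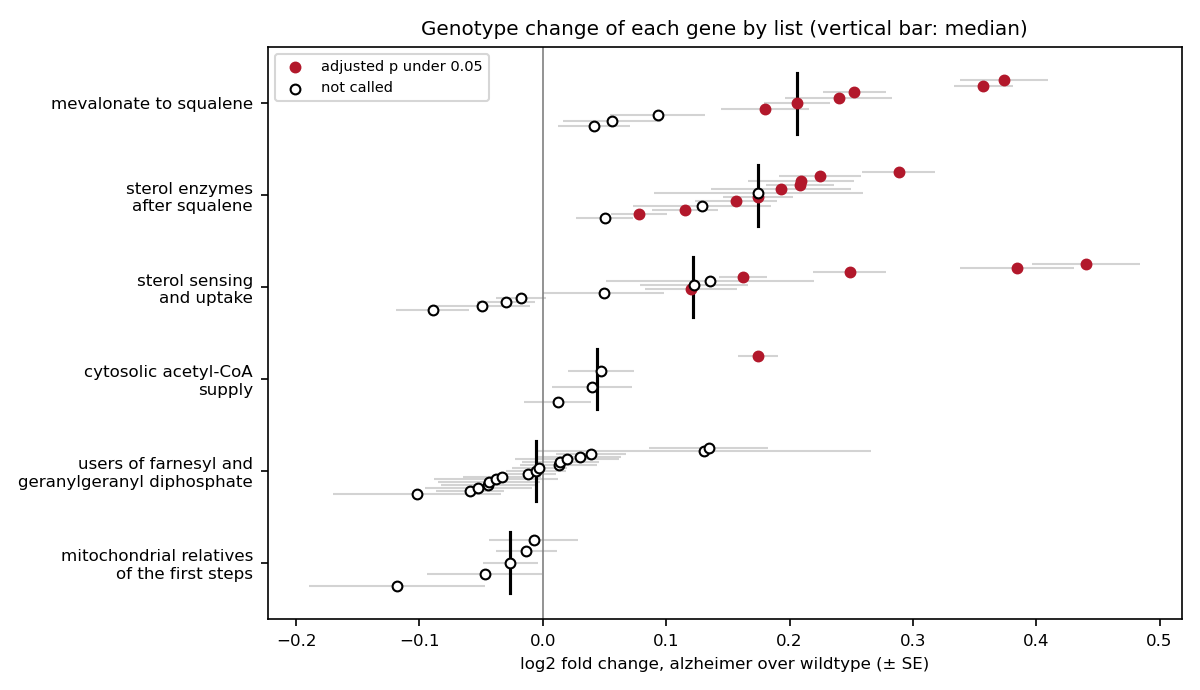
Log2 fold change of alzheimer over wildtype (horizontal axis, ± SE) for each gene of the pathway and of 5 neighbouring lists (vertical axis), with called genes in red, others open, and the list's median as a vertical bar. Medians are 0.206 for mevalonate to squalene, 0.175 for sterol enzymes after squalene and -0.00585 for the users of farnesyl and geranylgeranyl diphosphate.

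Some cell type markers were called for genotype as well, mostly lower, where 3.89% of all tested genes were called lower and 4.14% higher. The part of these markers in the changes was not tested beyond the fits given next. Of 10 mature oligodendrocyte markers 0 rose and 1 fell (Mbp, -0.19 ± 0.0585, adjusted p = 0.0419), and their sum ran from 8280 to 13540 CPM in the alzheimer group and from 8344 to 14920 CPM in wildtype libraries. Of 10 astrocyte markers Gfap rose (0.17 ± 0.0317, adjusted p = 0.000511) and S100b, Slc1a3 and Aldoc fell, and the sum ran from 5195 to 6074 CPM in the alzheimer group and from 5011 to 6042 CPM in wildtype libraries. With the log2 sum of either list as a covariate 6 of the 9 genes were still called for genotype over all strata, with Mvd at 0.20 ± 0.0423 (adjusted p = 0.0033) under the oligodendrocyte sum and 0.23 ± 0.0439 under the astrocyte sum. Within females, 4 of the 9 were called with either sum, against 6 without them, since Mvd and Idi1 lost their calls. On the western diet 4 were called with the oligodendrocyte and 3 with the astrocyte sum, against 5 without them. Of 8 microglia markers 4 fell, and their sum ran from 354.9 to 432.2 CPM in the alzheimer group and from 377.6 to 483.6 CPM in the wildtype group. Of 7 endothelial markers 2 fell (368.1 to 459.2 CPM in the alzheimer group, 352.4 to 463.1 CPM in the wildtype group), and of 7 mural markers 2 fell (109.8 to 151.9 CPM in the alzheimer group, 125.1 to 166.6 CPM in the wildtype group). Of 6 tested markers of oligodendrocyte precursors and early myelinating cells, only Bcas1 of the early myelinating ones fell (-0.25 ± 0.0513), the precursor markers Pdgfra, Cspg4 and Vcan were not called, and the sum ran from 446.6 to 624.1 CPM in the alzheimer group and from 440.2 to 732.9 CPM in the wildtype group. Among neuron markers 1 of 8 rose (Syt1, 0.10 ± 0.0271), and among hippocampal neuron markers 1 of 6 fell (Wfs1, -0.20 ± 0.0449), with sums of 1140 to 1512 CPM in the alzheimer group and 1187 to 1424 CPM in the wildtype group. Choroid plexus, ependyma and blood lists had 0 called of 6, 5 and 2 tested. Choroid plexus markers summed to 3.31 to 63.4 CPM in the alzheimer group and 3.13 to 37.6 CPM in the wildtype group. Ependyma markers summed to 12.1 to 26.1 CPM in the alzheimer group and 13.5 to 28.7 CPM in the wildtype group, and blood markers to 59.2 to 133.7 CPM in the alzheimer group and 54.1 to 122.1 CPM in the wildtype group. Mean sums (± SD) in the alzheimer and wildtype groups were 11380 ± 1520 and 12470 ± 1790 CPM for mature oligodendrocyte markers. They were 408.9 ± 19.1 and 435.9 ± 27.8 CPM for microglia, and 132.9 ± 12.6 and 146.3 ± 11.9 CPM for mural markers. Astrocyte, precursor, hippocampal neuron, endothelial and ependyma sums also had the lower mean in the alzheimer group. Neuron, choroid plexus and blood sums had the higher mean there. Differences in sums were not tested. Neu4, Otx2, Hba-a1 and Hba-a2 averaged under 0.1 CPM.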

How the data were processed

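The authors deposited raw counts per gene symbol, 1 column for each of 30 libraries. Per the submitters' processing notes, cutadapt (no version named) and STAR 2.7.0a were used. How reads were counted, with what strand setting, build and annotation, is not given in the sources used here. Columns were matched to samples by their descriptions. The labels do not state that each library is a separate animal, so p-values measure the spread between libraries. Of 42 pairs of libraries of one group, all differed by more than sampling noise.

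Models were fitted to the counts by edgeR 4.0.16 (R 4.3.3; filterByExpr with minimum count 10 and minimum total 15, TMM, quasi-likelihood F test, two-sided), with 1 coefficient per group and 1 for cohort. The common biological coefficient of variation was 6.27%. Ratios of 2 genes had 0.5 added to each count. They were tested over all 559872 exchanges of genotype within sex, diet and cohort (smallest p 3.57e-06), and correlations by 100000 permutations (smallest p 1e-05). The fit was tested on simulated data. It recovered 36 of 50 genes with a true log2 change of 0.2 and 48 of 50 with a change of 1, with 6 false calls. Changes smaller than 0.2 were not simulated.

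The genes and lists were chosen with earlier results of these data known. Named genes are the 9 members, up to 4 called genes of smallest p per list (or the smallest p where none was called), the 8 genes most like the mean of the members, and App. Cyp51, Lbr, Pdgfra, Cspg4, Vcan, Hsd17b7, Srebf1, Scap and the genes beside a member in the annotation were named after their values were seen. Some genes of these lists are not reported here. Gene copies and neighbours come from the RefSeq annotation of GRCr8. Alternatives were median-of-ratios factors, no filter, DESeq2 1.42.0, limma-voom 3.58.1, no cohort term, each cohort alone and each library left out. Covariates for library size, oligodendrocyte and astrocyte markers were added after seeing the data.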

Additional observations from a re-analysis of the deposited data

Results flagged for a closer look

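In 54 combinations of a gene and a group of 4 libraries, 4 held a library far from the other 3, where chance gives about 1 in 20. All 4 are wildtype libraries on chow, and leaving out any of them changed no call of the genotype comparison over all strata. Within smaller comparisons, Idi1 gained a call in males without replicate 7 and lost its call in females without replicate 4 or 13. Without replicate 13, Mvd lost its call in females and Idi1 in males on the western diet. Acat2 had 34.8 CPM in female wildtype chow replicate 20, against 32.1 to 32.4 CPM in the other 3 libraries. Hmgcs1 had 361.6 CPM in male wildtype chow replicate 7, against 335.8 to 336.6 CPM in the others, which is still below every alzheimer library. Pmvk had 36.8 CPM in female wildtype chow replicate 13, against 42.2 to 43.3 CPM in the others. It had 36.4 CPM in male wildtype chow replicate 4, against 39.0 to 39.5 CPM in the others.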

How the results depend on the processing

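The genotype comparison over all strata called 6 of the 9 genes with median-of-ratios factors, no filter, DESeq2, limma-voom, no cohort term, cohort 2 alone, each of the 3 covariates and every library left out in turn, and 5 in cohort 1 alone. Smaller comparisons moved more. In cohort 2 alone the number of the 9 genes called was 3 on chow, 3 in males, 0 in males on chow, 2 in males on the western diet, 1 in females on chow and 1 in females on the western diet. In cohort 1 alone it was 1 on the western diet, 1 in females, 1 in females on chow, and 0 in males on chow, in males on the western diet and in females on the western diet, where that cohort holds 1 library per genotype. DESeq2 called 4 in males on chow. It gave no adjusted p for Acat2 and Idi1 in males on the western diet. The covariates for library size, oligodendrocyte markers and astrocyte markers each left 1 in females on the western diet, and the astrocyte covariate left 3 on the western diet. Fewer libraries are compared in a single cohort; the cause of the other moves was not tested. Of the pairwise differences 12 were called in cohort 1 alone, where the smallest possible p was 0.00463, and 24 to 26 with 1 library left out. Leaving out 1 library gave 6 to 6 genes for genotype, 5 to 5 on chow, 3 to 5 on the western diet, 4 to 6 in males, 4 to 6 in females, 2 to 3 in males on chow, 3 to 4 in males on the western diet, 4 to 4 in females on chow and 1 to 3 in females on the western diet. No gene's called change turned its sign. No paired analysis was possible because the replicate numbers run through all 30 libraries and no number is shared between groups. Depth was 277 counts or more for Mvk and 246 or more for Ggps1 in every library, so counting error is part of their spread.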
